A study of Homo sapiens with 26 samples.

Results

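Immunoglobulin variable (V) segments were examined in 2 human lymphoma lines, OCI-Ly7 and SU-DHL-4 (labelled SUDHL4). Every annotated gene whose symbol starts with IGHV, IGKV or IGLV was taken. That gave 330 genes of 58592 in the tables, 151 heavy-chain (IGHV), 103 kappa (IGKV) and 76 lambda (IGLV). Of these, 142 were annotated as V genes, 187 as V pseudogenes and 1 as another type, and 55 were orphons, copies outside the immunoglobulin loci. No read was assigned to 87 of the 330 in any library.

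Both lines come from diffuse large B-cell lymphoma of the germinal-centre B-cell type. All cells, controls included, carried a dead Cas9 fused to the KRAB repressor (CRISPRi), and guide RNAs were added by lentivirus. In OCI-Ly7 there were 6 libraries with guides against POU2AF1 (POU2AF1 knockdown), 8 with guides against POU2F2 (POU2F2 knockdown) and 4 with non-targeting guides (control), and in SUDHL4 there were 1 of POU2AF1 knockdown, 2 of POU2F2 knockdown and 1 control. The labels place each library in batch 1 or batch 2 without saying what a batch is. These 22 libraries came from 26 deposited files after files that repeated a library were merged. Files 1 and 2 of the OCI-Ly7 control in batch 1 differed by close to sampling noise, and so did the 2 POU2AF1 knockdown files and the 2 control files of SUDHL4, and each pair was counted as 1 sample. The third batch 1 control file of OCI-Ly7, which the labels mark as 48 h, equalled the sum of the first 2 to within 2 reads in 92.9% of 26871 genes and was not counted again, so that batch 1 has 1 OCI-Ly7 control library, control replicate 1. POU2AF1 knockdown replicate 3 and POU2F2 knockdown replicate 3 of OCI-Ly7 are also marked 48 h, and the labels give no time for the others. OCI-Ly7 was grown in IMDM with serum and SUDHL4 in RPMI with serum, so line and medium cannot be told apart. The labels do not say that replicates were separate cultures, so the tests speak only of how far these particular libraries scatter.

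A B cell makes its antigen receptor by joining a V segment to a joining segment, with a diversity segment between them in the heavy chain, and each cell normally expresses a single heavy and a single light chain. A lymphoma line descends from a single such cell, so its V segment transcripts should come mainly from its own rearranged genes. V promoters carry an octamer element, which is bound by OCT1 and by OCT2, the product of POU2F2. POU2AF1 encodes OCA-B, a B-cell coactivator that binds these factors on the octamer.

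Library depth ranged over files between 24959865 and 53155548 estimated reads. Mitochondrially encoded reads made up 25.8% of POU2AF1 knockdown replicate 1 of OCI-Ly7 and between 7.04% and 9.74% of the other POU2AF1 knockdown libraries of that line. The 5 B-cell markers MS4A1, CD79A, CD79B, PAX5 and CD22 each averaged at least 1 CPM (counts scaled to a common library size by the TMM method) in every group. The summed CPM of the 7 T- and NK-cell markers reached at most 3.52 in any library, and that of the 6 myeloid markers at most 1.18, with MPO at 0 in all OCI-Ly7 control and all SUDHL4 libraries. The targeted genes were low in their own knockdowns. POU2AF1 lay between 27.8 and 89.5 CPM in OCI-Ly7 POU2AF1 knockdown, against 448 to 479 CPM in control (log2 change -2.996 ± 0.19 SE, edgeR quasi-likelihood adjusted p = 1.972e-07), and at 74.1 CPM in SUDHL4 POU2AF1 knockdown, against 406 CPM in control. POU2F2 lay between 56.6 and 150 CPM in OCI-Ly7 POU2F2 knockdown, against 211 to 409.5 CPM in control, a log2 change of -1.57 ± 0.24 that did not pass the threshold of 0.05 (edgeR adjusted p = 0.0559). In the fit of all libraries of both lines it passed (-1.57, edgeR adjusted p = 0.0335), and the 6 libraries with a control of the same series stood at 0.234 to 0.359 of it. POU2F2 was at 40.6 and 52.1 CPM in the SUDHL4 POU2F2 knockdown libraries, against 303 CPM in control.

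A single heavy and a single kappa segment took most reads of their class in each line, and they differed between the lines. The dominant segment is the one with the highest share of heavy or of light V reads, averaged over the libraries of a line. In OCI-Ly7 these were IGHV1-69D, with a mean of 94.96% of IGHV reads, and IGKV4-1, with 86.1% of IGKV reads. In SUDHL4 they were IGHV4-59, with 90.2% of IGHV reads, and IGKV2-28, with 91.2% of IGKV reads. Each ranked top in all libraries of its line, 18 in OCI-Ly7 and 4 in SUDHL4.

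The 4 germline V exons that carry these results are shown by their last 300 bases so that they can be set beside their nearest relatives, in the coding strand, from GENCODE release 29 on GRCh38. Capitals mark bases that differ from the nearest relative, IGHV1-69 for IGHV1-69D and IGHV4-61 for IGHV4-59. IGHV1-69D differs by a capital G and by its final GA, and IGHV4-61 has 6 bases more than IGHV4-59. They are reference sequences and not the lines' own rearranged genes, which can carry somatic mutations.
IGHV1-69D: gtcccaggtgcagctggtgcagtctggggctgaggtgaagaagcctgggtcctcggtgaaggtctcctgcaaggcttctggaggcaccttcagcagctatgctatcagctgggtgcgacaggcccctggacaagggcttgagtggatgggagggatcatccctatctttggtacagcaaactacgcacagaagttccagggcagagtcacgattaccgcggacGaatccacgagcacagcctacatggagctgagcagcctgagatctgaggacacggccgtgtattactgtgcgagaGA
IGKV4-1: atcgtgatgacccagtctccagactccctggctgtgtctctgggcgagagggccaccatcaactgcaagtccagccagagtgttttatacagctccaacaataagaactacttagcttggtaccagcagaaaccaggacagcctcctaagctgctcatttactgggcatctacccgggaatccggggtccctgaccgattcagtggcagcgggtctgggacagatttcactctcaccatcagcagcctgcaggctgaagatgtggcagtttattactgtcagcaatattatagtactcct
IGHV4-59: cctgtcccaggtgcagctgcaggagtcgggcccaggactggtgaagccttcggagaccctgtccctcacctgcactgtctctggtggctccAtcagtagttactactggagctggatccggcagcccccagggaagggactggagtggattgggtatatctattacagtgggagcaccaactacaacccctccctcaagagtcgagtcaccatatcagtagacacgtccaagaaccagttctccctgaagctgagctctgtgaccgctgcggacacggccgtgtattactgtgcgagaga
IGKV2-28: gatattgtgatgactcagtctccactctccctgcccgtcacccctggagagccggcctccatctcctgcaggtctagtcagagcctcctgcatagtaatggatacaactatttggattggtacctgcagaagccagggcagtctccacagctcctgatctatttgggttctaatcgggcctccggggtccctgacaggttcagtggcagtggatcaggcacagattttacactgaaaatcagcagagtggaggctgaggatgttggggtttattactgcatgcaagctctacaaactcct

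IGHV1-69D lies on the minus strand of chromosome 14, with its V exon at chr14:106762092-106762398, and IGHV4-59 lies there at chr14:106627249-106627552. Ordered by distance from IGHM, the mu constant gene, they rank 111 and 90 of 126 IGHV segments, at 908 kb and 774 kb. IGKV4-1 is on the plus strand of chromosome 2 at chr2:88885840-88886153 and is the nearest of 76 IGKV segments to the kappa constant gene IGKC, at 28 kb. IGKV2-28 is on the minus strand at chr2:89221698-89222008 and ranks 28 of 76, at 365 kb. How well reads can be assigned differs between the segments. IGHV1-69D and its copy IGHV1-69 were 99.5% identical over 409 aligned transcript bases, and within the V exon, counted from its first base, they differ by the substitution G231A and in their annotated ends (307 against 305 bases). IGHV4-59 was 98.0% identical to IGHV4-61. IGKV2-28 and its copy IGKV2D-28 were identical over all 390 bases of their annotated transcripts, so the split of reads between them is uncertain. IGKV4-1 stood apart, with 76.8% identity to its nearest relative, IGKV3-15.

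**Figure D1:**
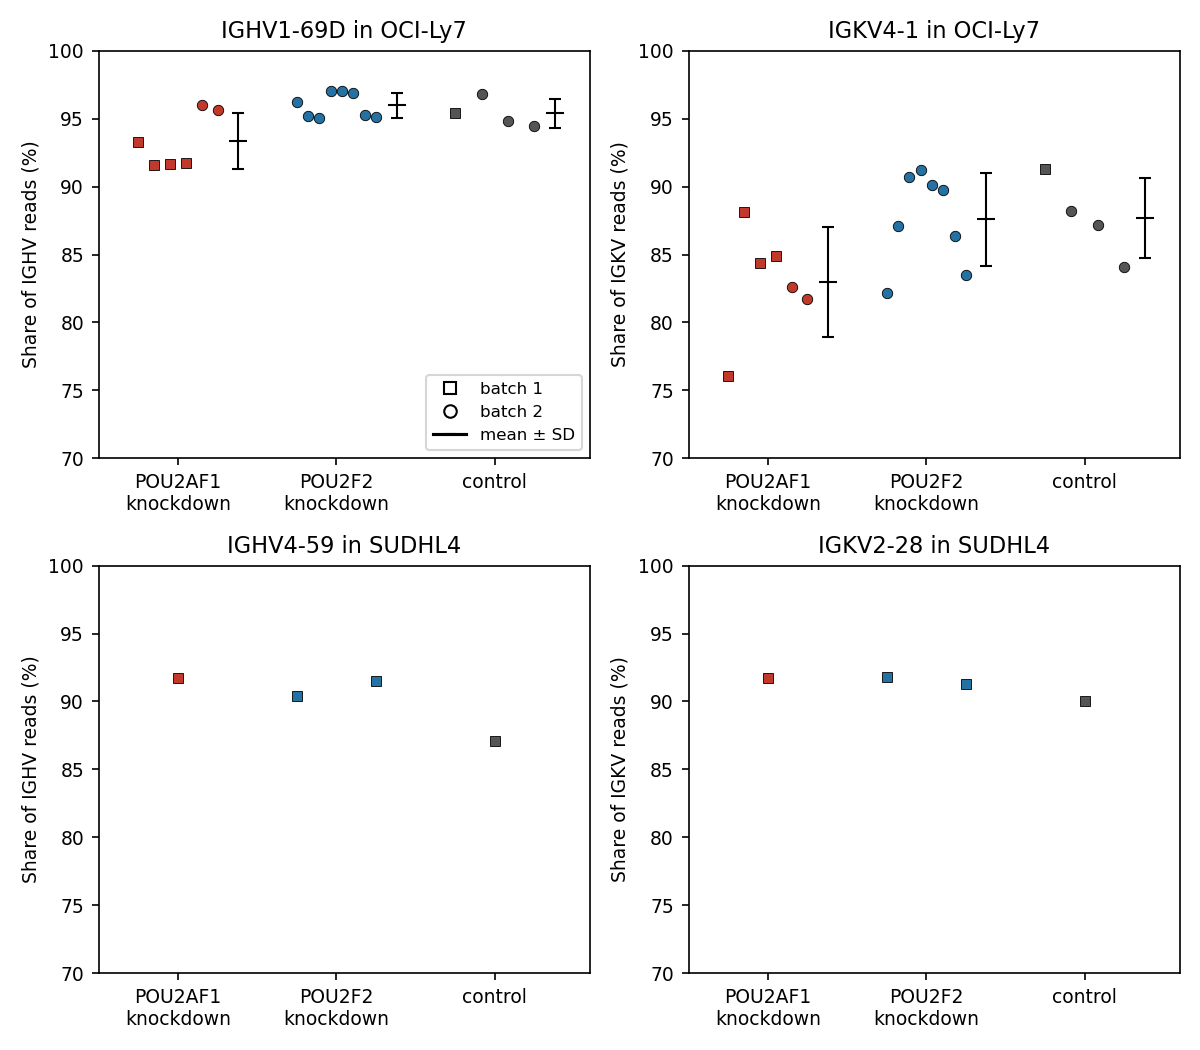
Share of the dominant segment among the reads of its class (vertical axis, percent, starting at 70) in each library of OCI-Ly7 (top) and SUDHL4 (bottom), for POU2AF1 knockdown, POU2F2 knockdown and control. Squares are batch 1 and circles batch 2, and bars give the mean ± SD where a group has more than 2 libraries. All shares lie between 76.1% and 97.0%.

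Beyond the dominant pair, few segments were seen in OCI-Ly7. At least 10 reads were found for 25 to 39 of the 330 members per library, for 51 in any library and for 14 in every library. IGHV1-18, a functional gene 87.3% identical to IGHV1-69D, held 3.61% of IGHV reads on average, with a range over libraries of 2.10% to 6.08%. IGHV5-78, a pseudogene, held 1.01%. Among kappa segments the pseudogene IGKV2-18 came second with 11.6% of IGKV reads (7.04% to 20.3%), and it was 66.9% identical to IGKV4-1 with a longest shared run of 12 bases. Lambda segments made up between 0.276% and 0.865% of all V reads in any OCI-Ly7 library, and IGLV6-57 held 63.9% of them.

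SUDHL4 had a similar layout with other names. At least 10 reads were found for 29 to 34 members per library, for 42 in any library and for 19 in all. After IGHV4-59, the pseudogene IGHV5-78 held 6.57% of IGHV reads and IGHV4-28, which is 94.3% identical to IGHV4-59, held 1.41%. After IGKV2-28, its identical copy IGKV2D-28 held 2.41% of IGKV reads, the pseudogene IGKV2-29 1.98% and the orphon IGKV2OR22-4 on chromosome 22 1.56%. Lambda segments took between 1.14% and 1.98% of V reads, and IGLV6-57 again led them with 55.9%. The constant genes also differed between the lines. IGHM lay between 2304 and 6761 CPM over the OCI-Ly7 libraries and between 2.09 and 19.6 CPM over the SUDHL4 libraries, whereas IGHG4 was at 1988 CPM in SUDHL4 POU2AF1 knockdown, at 1615 and 1781 CPM in POU2F2 knockdown and at 1900 CPM in control, and at no more than 0.495 CPM in any OCI-Ly7 library. The IgG constant genes share much of their sequence, so the split among them is uncertain.

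The dominant heavy segment fell after POU2AF1 knockdown in OCI-Ly7. IGHV1-69D measured 320.4, 389.6, 388 and 383 CPM in the batch 1 libraries of POU2AF1 knockdown and 749 and 928 CPM in those of batch 2. POU2F2 knockdown ranged between 888 and 1647 CPM with a median of 1421, and control libraries measured 953 CPM in batch 1 and 1428, 1417 and 1108 CPM in batch 2. Every POU2AF1 knockdown library was below every control library, while the POU2F2 knockdown range overlapped the control range. Group means were 526.2 ± 249.7 CPM in POU2AF1 knockdown (SD, n = 6), 1355 ± 229.7 CPM in POU2F2 knockdown (n = 8) and 1226 ± 235 CPM in control (n = 4).

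In the fit with batch, IGHV1-69D changed by -0.95 ± 0.17 on the log2 scale in POU2AF1 knockdown relative to control, with an edgeR quasi-likelihood adjusted p of 0.00746. Within batches the change was -1.36 ± 0.15 in batch 1, which holds a single control library (edgeR adjusted p = 0.0457), and -0.63 ± 0.23 in batch 2 (edgeR adjusted p = 1). Without that batch 1 control library, control replicate 1, the change was -0.63 and the adjusted p 0.871. The labels also mark most batch 2 libraries with a series, s0 to s3, and set against the control of the same batch 1 or series, the 6 POU2AF1 knockdown libraries stood at 0.336 to 0.655 of the control CPM, below it in 6 of 6. With these series as blocks the change was -1.02 ± 0.11 (edgeR adjusted p = 3.94e-05). Without POU2AF1 knockdown replicate 1, the library with the high mitochondrial share, it was -0.91 (edgeR adjusted p = 0.0141). In bulk RNA, fewer cells that express the segment and less of its RNA per cell cannot be told apart.

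The dominant light segment had lower values too, but it was not called in the fit with batch. IGKV4-1 measured 465, 922, 827 and 866 CPM in batch 1 and 1259 and 1067 CPM in batch 2 of POU2AF1 knockdown. POU2F2 knockdown ranged between 1299 and 2913 CPM with a median of 1916, and control libraries measured 1877 CPM in batch 1 and 2366, 1841 and 1366 CPM in batch 2. Again no POU2AF1 knockdown library reached the lowest control. The log2 change was -0.93 ± 0.25 with an edgeR adjusted p of 0.119, and -1.06 ± 0.16 with the series as blocks (edgeR adjusted p = 0.000938). Within batches it was -1.28 ± 0.33 in batch 1 and -0.66 ± 0.33 in batch 2 (edgeR adjusted p = 0.312 and 1). Against the control of the same batch 1 or series, the 6 libraries stood at 0.248 to 0.580 of the control CPM.

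**Figure D2:**
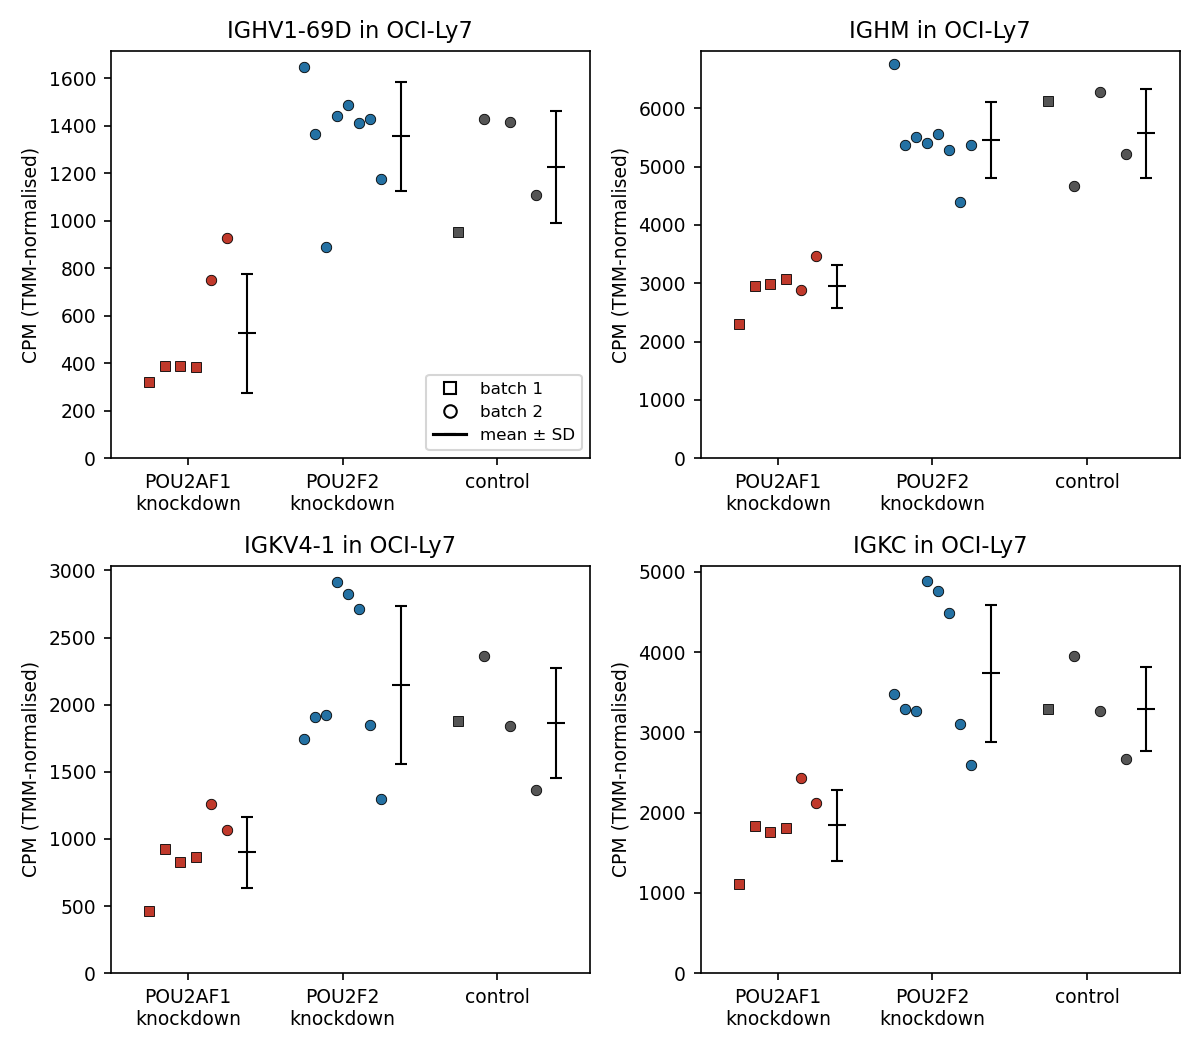
TMM-normalised CPM (vertical axes, from 0) of the dominant segments IGHV1-69D and IGKV4-1 and of the constant genes IGHM and IGKC in each OCI-Ly7 library, for POU2AF1 knockdown, POU2F2 knockdown and control. Squares are batch 1, circles batch 2 and bars the mean ± SD. In each panel the POU2AF1 knockdown points lie below all control points, and for IGHV1-69D the batch 1 points lie lowest.

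The constant genes IGHM and IGKC were also lowest in POU2AF1 knockdown. IGHM averaged 2946 ± 373.7 CPM in POU2AF1 knockdown, 5455 ± 643 CPM in POU2F2 knockdown and 5569 ± 767.7 CPM in control (SD), with a log2 change of -0.90 ± 0.14 in POU2AF1 knockdown (edgeR adjusted p = 0.00294). Without control replicate 1 the IGHM change was -0.74 (edgeR adjusted p = 0.432), and in a fit of all libraries of both lines the adjusted p was 0.134. IGKC averaged 1842 ± 440.6 CPM in POU2AF1 knockdown, 3733 ± 859 CPM in POU2F2 knockdown and 3291 ± 525 CPM in control, with a log2 change of -0.73 ± 0.21 that was not called (edgeR adjusted p = 0.147). With the series as blocks IGKC was called, at -0.83 ± 0.14 (edgeR adjusted p = 0.00155), and its 6 POU2AF1 knockdown libraries stood at 0.336 to 0.650 of the control of the same batch 1 or series. Per length, in TPM (abundance scaled for transcript length), the heavy and light segments of control were close, at 5830 ± 718.5 for IGHV1-69D and 5692 ± 1231 for IGKV4-1. The TPM of IGHV1-69D relative to IGHM was 76.8% to 87.4% in batch 1 and 128% and 132% in batch 2 of POU2AF1 knockdown, 97.8% to 157% in POU2F2 knockdown, and 96.1% in batch 1 and 115% to 146% in batch 2 of control. The TPM of IGKV4-1 relative to IGKC was 40.6% to 48.5% in POU2AF1 knockdown, 47.4% to 57.1% in POU2F2 knockdown and 48.7% to 55.7% in control, so the POU2AF1 knockdown and control libraries did not overlap, by a narrow margin. As a ratio of CPM they did overlap, at 42.05% to 51.85% in POU2AF1 knockdown and 51.31% to 59.93% in control. These ratios were not tested.

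**Figure D3:**
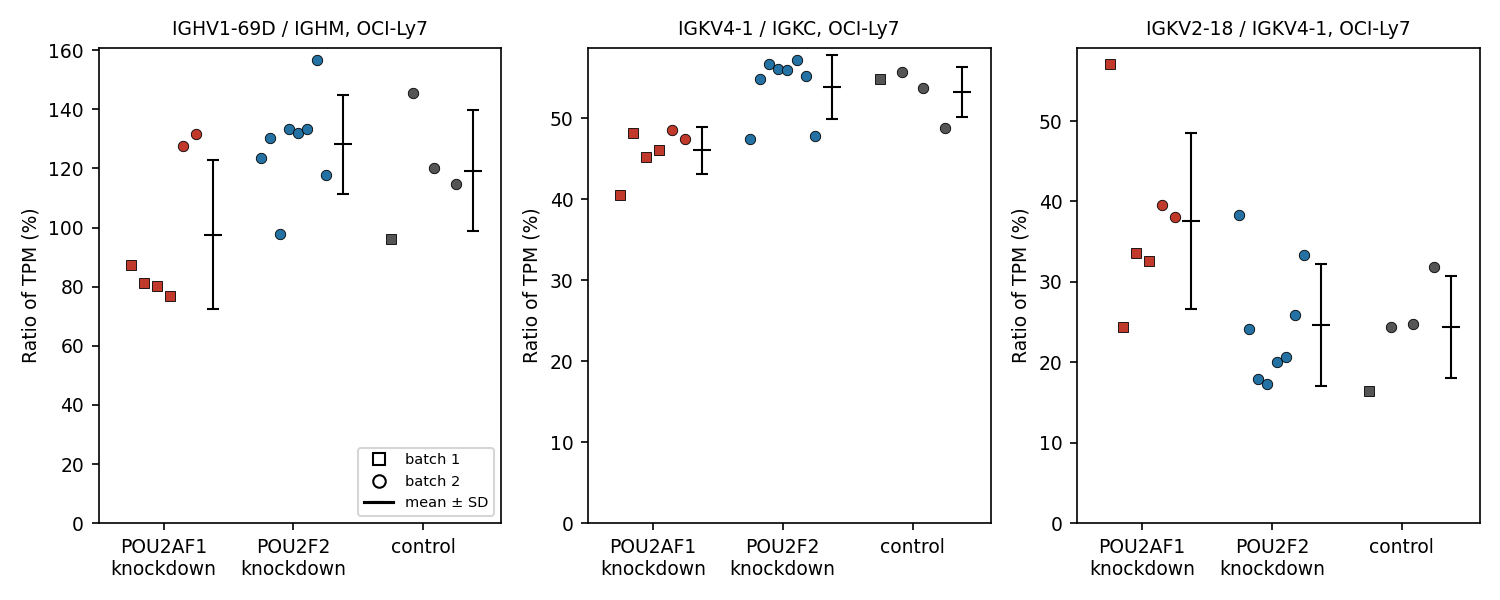
Ratio of TPM in percent (vertical axes, from 0) for IGHV1-69D to IGHM, IGKV4-1 to IGKC and IGKV2-18 to IGKV4-1 in each OCI-Ly7 library, by group, with batch 1 as squares, batch 2 as circles and bars for the mean ± SD. The heavy-chain ratio is lower in batch 1 than in batch 2 in both POU2AF1 knockdown and control, and the highest ratio of IGKV2-18 to IGKV4-1, 57.1%, is in POU2AF1 knockdown replicate 1.

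Of the 330 members, 40 passed the filter on low counts in OCI-Ly7, 7 heavy, 22 kappa and 11 lambda, and 4 of them were called lower and 0 higher in POU2AF1 knockdown. Of all 16001 genes tested, 0.887% were called in either direction, 0.606% lower and 0.281% higher. The 4 were IGHV1-69D, IGHV1-69, IGKV1D-8 and IGKV3D-7. IGHV1-69 averaged 0.241 ± 0.0959 CPM in POU2AF1 knockdown and 0.781 ± 0.211 CPM in control (SD, edgeR adjusted p = 0.0322), at most 0.0840% of the CPM of its near-identical copy IGHV1-69D in every library, and since the quantification can split reads between near-identical copies its call is uncertain. IGKV1D-8 averaged 1.32 ± 0.46 CPM in POU2AF1 knockdown and 3.24 ± 0.51 CPM in control (edgeR adjusted p = 0.0485). IGKV3D-7 averaged 0.481 ± 0.408 CPM in POU2AF1 knockdown and 2.14 ± 0.85 CPM in control (edgeR adjusted p = 0.0296). Leaving out 1 library at a time, the call held in 4 of 10 fits for IGHV1-69, in 1 of 10 for IGKV1D-8 and in 3 of 10 for IGKV3D-7, whose log2 change of -2.09 was -1.01 without control replicate 1. The median log2 change was -0.67 over the 40 segments and -0.00418 over all genes tested, and 30 of the 40 values were below 0.

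Replicate choices bore on this count. With the series as blocks, 10 of the 40 were called, all lower, where 5.59% of all genes were called, 3.09% lower and 2.49% higher. They added IGKV4-1, IGHV1-18, IGHV5-78, IGKV2-30, IGKV3-20 and IGLV6-57 to the first 4. IGHV1-18 averaged 24.1 ± 5.58 CPM in POU2AF1 knockdown and 42.5 ± 13.8 CPM in control, IGHV5-78 averaged 6.21 ± 1.43 CPM in POU2AF1 knockdown and 11.98 ± 3.01 CPM in control, and IGLV6-57 averaged 5.49 ± 2.04 CPM in POU2AF1 knockdown and 10.5 ± 2.04 CPM in control (SD). Leaving out 1 library at a time gave between 0 and 5 calls, with 0 when control replicate 1 was left out. Summed CPM of the 4 germinal-centre markers BCL6, MME, MYBL1 and RGS13 was 329.8 to 564 in POU2AF1 knockdown, 451 to 602 in POU2F2 knockdown and 618 to 793 in control. The sum was below every control library in both knockdowns. No V segment was called in POU2F2 knockdown, and neither was any other of the 16001 genes tested. The part of these markers in the result was not tested.

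IGKV2-18 had overlapping values when all libraries of a group were pooled. It measured 106 to 235 CPM with a median of 132 in POU2AF1 knockdown, 162 to 323 CPM with a median of 234 in POU2F2 knockdown, and 145, 272, 219 and 209 CPM in control. The log2 change in POU2AF1 knockdown was -0.16 ± 0.16 (edgeR adjusted p = 0.9997). As a share of the TPM of IGKV4-1 it stood at 24.4% to 57.1% in POU2AF1 knockdown, 17.3% to 38.4% in POU2F2 knockdown and 16.5% to 31.9% in control. Against the control of the same batch 1 or series, IGKV2-18 itself stood at 0.731 to 0.919 of the control CPM, below it in 6 of 6 POU2AF1 knockdown libraries. Its ratio to IGKV4-1 was above that control in 6 of 6 POU2AF1 knockdown and 2 of 6 POU2F2 knockdown libraries. These are not separate comparisons, since libraries of the same batch 1 or series share a control. All batch 1 libraries were set against control replicate 1, which had the lowest ratio of the controls, 16.5%.

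**Figure D4:**
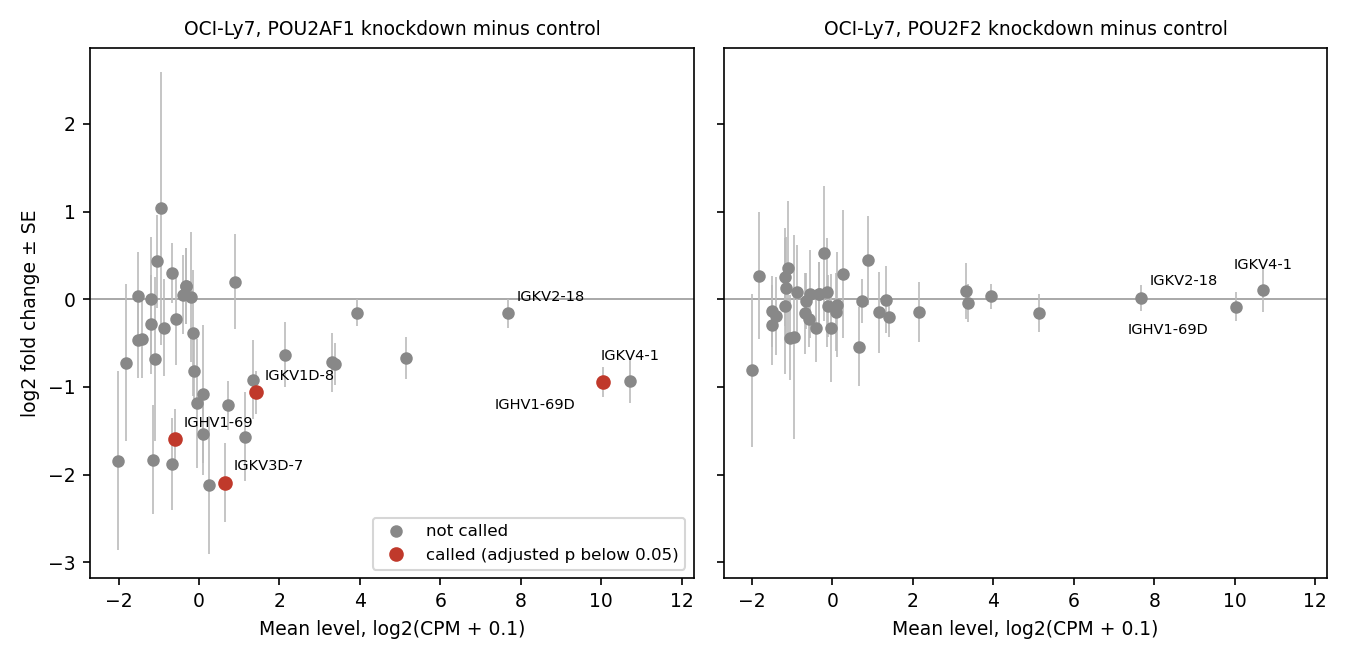
Log2 fold change ± SE (vertical axis) against mean level as log2(CPM + 0.1) for the 40 V segments tested in OCI-Ly7, for POU2AF1 knockdown minus control on the left and POU2F2 knockdown minus control on the right. Red points were called. On the left 4 segments are called and 30 of 40 values lie below 0, and on the right no segment is called.

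The share of the dominant segment within its class was compared as well, and no difference passed the test. IGHV1-69D made up 93.3% ± 2.05 of IGHV reads in POU2AF1 knockdown (SD, n = 6), 96.0% ± 0.902 in POU2F2 knockdown (n = 8) and 95.4% ± 1.05 in control (n = 4). Single POU2AF1 knockdown libraries lay between 91.6% and 96.0%, and control libraries at 95.4%, 96.8%, 94.8% and 94.4%. Within batches the difference between POU2AF1 knockdown and control averaged -1.06 points, with an exact two-sided permutation p of 0.3 over 50 arrangements, and 0.501 after Benjamini-Hochberg adjustment over the 4 share tests. IGKV4-1 made up 83.0% ± 4.03 of IGKV reads in POU2AF1 knockdown, 87.6% ± 3.43 in POU2F2 knockdown and 87.7% ± 2.98 in control. Its share was 76.1%, 88.1%, 84.4% and 84.9% in batch 1 and 82.6% and 81.7% in batch 2 of POU2AF1 knockdown, against 91.3% in batch 1 and 88.2%, 87.1% and 84.1% in batch 2 of control. The difference was -5.77 points, with an exact permutation p of 0.06 and an adjusted p of 0.24. The smallest p this design allows is 0.02. Even at 0.02, either POU2AF1 knockdown share test alone would have missed the threshold after adjustment over the 4 tests. These tests therefore cannot decide whether the shares differ between POU2AF1 knockdown and control.

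After POU2F2 knockdown in OCI-Ly7 no segment was called. Of the 40 tested, 0 passed the edgeR threshold and 0 had an unadjusted p under 0.05, and 0% of all genes were called. DESeq2 also called 0 of them. With the series as blocks 0 of the 40 were called as well, where 0.0812% of all genes were called, 0.0312% lower and 0.05% higher. IGHV1-69D differed from control by -0.09 ± 0.16 and IGKV4-1 by 0.10 ± 0.24 on the log2 scale, and the sign of both depended on the libraries and blocks used. Against the control of the same series, the 6 libraries that have such a control stood at 0.962 to 1.06 of the control CPM for IGHV1-69D and at 0.951 to 1.23 for IGKV4-1. IGKV4-1 was higher in s0 than in s2, and higher in s2 than in s3, in both groups. In s0, POU2F2 knockdown measured 2913, 2824 and 2711 CPM against 2366 CPM in control, in s2 it measured 1908 and 1848 CPM against 1841 CPM in control, and in s3 1299 CPM against 1366 CPM in control. Shares differed by 0.604 points for IGHV1-69D and 1.13 points for IGKV4-1, with exact permutation p-values of 0.376 and 0.618, adjusted to 0.501 and 0.618. Only batch 2 holds both groups of this comparison, with 8 POU2F2 knockdown and 3 control libraries.

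The knockdowns were also compared with each other in OCI-Ly7, a contrast added after the data were seen. IGHV1-69D differed by -0.86 ± 0.18 on the log2 scale in POU2AF1 knockdown relative to POU2F2 knockdown (edgeR adjusted p = 0.0769), and IGKV4-1 by -1.03 ± 0.27 (edgeR adjusted p = 0.252). Of the 40 segments edgeR called 0 and 13 had an unadjusted p under 0.05, where 0.162% of all genes were called, 0.137% lower and 0.025% higher. With the series as blocks both were called, at -0.93 ± 0.12 (edgeR adjusted p = 0.000893) and -1.08 ± 0.17 (edgeR adjusted p = 0.0054), among 7 segments called lower and 0 higher, where 1.26% of all genes were called, 0.85% lower and 0.406% higher. IGHM was called in the fit with batch, at -0.86 ± 0.15 (edgeR adjusted p = 0.0259).

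SUDHL4 had a single control library, so its fit takes the spread from the 2 POU2F2 knockdown libraries alone, with 1 residual degree of freedom. IGHV4-59 was at 135 CPM in POU2AF1 knockdown, at 124 and 156 CPM in POU2F2 knockdown and at 145.5 CPM in control. The control value lies between the POU2F2 knockdown values, and the log2 changes were -0.11 ± 0.15 for POU2AF1 knockdown (edgeR adjusted p = 0.631) and -0.05 ± 0.13 for POU2F2 knockdown (edgeR adjusted p = 0.893). IGKV2-28 was at 487 CPM in POU2AF1 knockdown, at 468 and 522 CPM in POU2F2 knockdown and at 393 CPM in control. All 3 knockdown libraries were above the control, with log2 changes of 0.31 ± 0.13 and 0.33 ± 0.11 for the POU2AF1 and POU2F2 knockdowns that did not pass the threshold (edgeR adjusted p = 0.0559 and 0.0651). IGKC was at 1510 CPM in POU2AF1 knockdown, at 1381 and 1265 CPM in POU2F2 knockdown and at 1226 CPM in control, and was not called in either. The TPM of IGKV2-28 relative to IGKC was 52.3% in POU2AF1 knockdown, 55.2% and 67.0% in POU2F2 knockdown and 52.4% in control.

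The shares in SUDHL4 are values only, since a single control library allows no test over libraries. IGHV4-59 made up 91.7% of IGHV reads in POU2AF1 knockdown, with a 95% Wilson interval of 91.1% to 92.3%. It made up 90.4% and 91.5% in POU2F2 knockdown and 87.1% in control, with an interval of 86.4% to 87.8%. IGKV2-28 made up 91.7% of IGKV reads in POU2AF1 knockdown, 91.8% and 91.3% in POU2F2 knockdown and 90.0% in control. These intervals cover counting error only. The class totals include the leading segments of OCI-Ly7, which were highest in the SUDHL4 control. IGKV4-1 took 432 of 22878 IGKV reads in control and 93 of 30132 in POU2AF1 knockdown. IGHV1-69D took 110 of 8758 IGHV reads in control and 9 of 8374 in POU2AF1 knockdown. Their part in the share differences was not tested. IGHV5-78, the second heavy segment, was at 7.78 CPM in POU2AF1 knockdown, at 9.21 and 9.40 CPM in POU2F2 knockdown and at 14.7 CPM in control, and was called lower in both comparisons (log2 changes of -0.92 ± 0.18 and -0.66 ± 0.15, edgeR adjusted p = 8.09e-05 and 0.00318).

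Of the 330 members, 42 were tested in SUDHL4. In POU2AF1 knockdown 1 was called higher and 9 lower, where 36.8% of all 16973 genes tested were called, 18.8% lower and 18% higher. In POU2F2 knockdown 1 was called higher and 5 lower, where 7.35% of all genes were called, 2.56% lower and 4.79% higher. The higher one was IGKV2D-28 in both, the copy identical to IGKV2-28. In the 2 control files that repeat 1 library, IGKV2D-28 received 43.7 and 353 reads while both copies together received 10196 and 10798, so the estimate for this copy varied between repeats and its call is uncertain. The median log2 change over the 42 was -0.16 in POU2AF1 knockdown and -0.05 in POU2F2 knockdown, with 0.00874 and 0.00771 over all genes tested.

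Of the segments called lower in both SUDHL4 comparisons, IGHV1-69D, IGKV4-1 and IGKV2-18 are leading segments of OCI-Ly7. IGHV1-69D received 9 reads in POU2AF1 knockdown, 17 and 13 reads in POU2F2 knockdown and 110 reads in control. IGKV4-1 received 93 reads in POU2AF1 knockdown, 157 and 140 reads in POU2F2 knockdown and 432 reads in control. IGKV2-18 received 2 reads in POU2AF1 knockdown, 4 and 0 reads in POU2F2 knockdown and 26 reads in control. The SUDHL4 control was the highest of the 4 libraries for each. Set against the mean CPM of these genes in OCI-Ly7 control, the SUDHL4 control stood at 0.171% for IGHV1-69D, 0.443% for IGKV4-1 and 0.235% for IGKV2-18, and the SUDHL4 POU2AF1 knockdown at 0.0129%, 0.0880% and 0.0167%. The OCI-Ly7 constant genes were arranged alike. IGHM stood at 0.0427% of its OCI-Ly7 control level in POU2AF1 knockdown, at 0.160% and 0.0375% in POU2F2 knockdown and at 0.352% in control, and IGHD at 0.0560% in POU2AF1 knockdown, at 0.0656% and 0% in POU2F2 knockdown and at 0.566% in control. The part of these low levels in the calls was not tested. In the other direction, IGHV4-59 reached at most 0.111 CPM and IGKV2-28 at most 1.27 CPM in any OCI-Ly7 library.

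**Figure D5:**
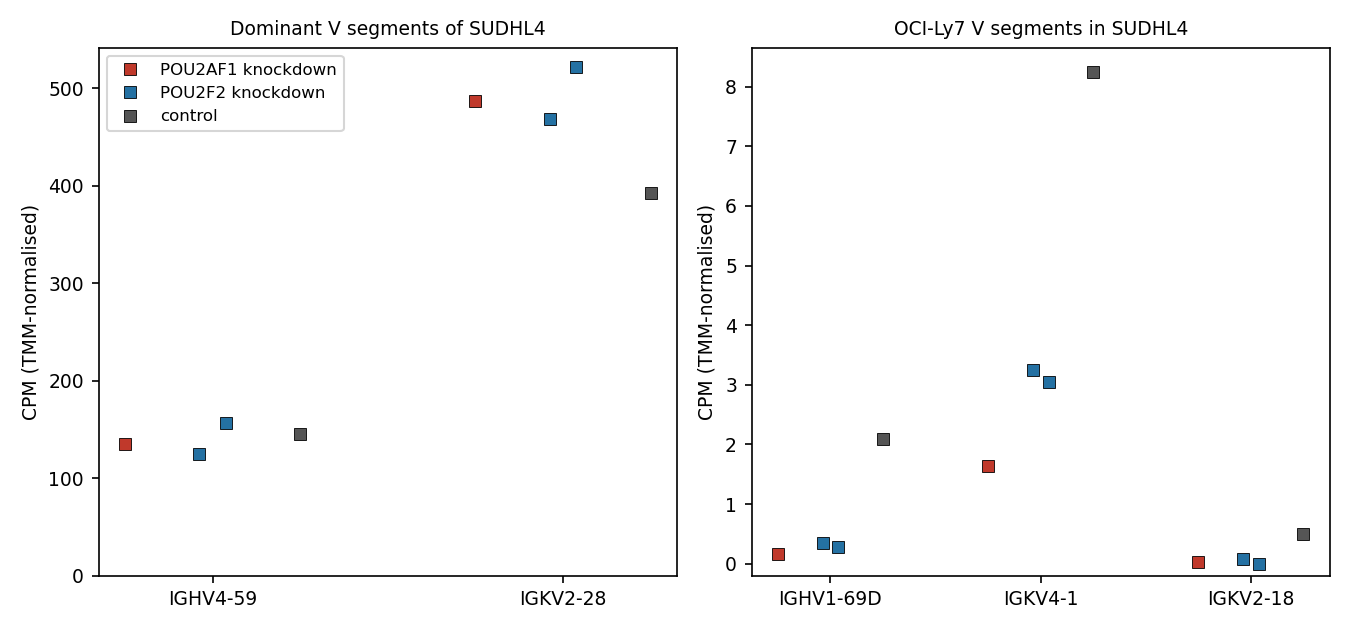
TMM-normalised CPM in the SUDHL4 libraries of POU2AF1 knockdown, POU2F2 knockdown and control, for the line's dominant segments IGHV4-59 and IGKV2-28 on the left and for the OCI-Ly7 segments IGHV1-69D, IGKV4-1 and IGKV2-18 on the right. Each square is a library. The control is lowest for IGKV2-28 and highest for each OCI-Ly7 segment.

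The other segments called lower in SUDHL4 were seen at low counts. In POU2AF1 knockdown they were IGKV2D-30, with 4 reads in POU2AF1 knockdown against 38 in control, IGKV5-2 with 8 against 29, IGHV3-64 with 14 against 36, IGLV1-47 with 20 against 59 and IGLV1-44 with 18 against 76. In POU2F2 knockdown it was IGKV2-23, with 0 and 0 reads in POU2F2 knockdown against 13 in control. Because SUDHL4 has groups of 1 library, the filter on low counts keeps a segment that reaches its minimum in 1 library. A segment can so enter the test through the control alone, as IGKV2-18 did with 26 reads there. That favours calls in the lower direction, so the lower calls at low counts are uncertain. In a fit of all libraries of both lines, which takes the spread from 15 residual degrees of freedom, only IGHV1-69D, IGKV4-1 and IGKV2-18 were called in POU2AF1 knockdown and only IGHV1-69D and IGKV2-18 in POU2F2 knockdown, all lower. Of all genes 1.66% were called in that fit in POU2AF1 knockdown, 0.55% lower and 1.11% higher, and 0.0951% in POU2F2 knockdown, 0.0423% lower and 0.0529% higher. Beside these, the summed CPM of the 5 B-cell markers was 5182 in POU2AF1 knockdown, 3186 and 3611 in POU2F2 knockdown and 2085 in control. That of the 4 germinal-centre markers was 614 in POU2AF1 knockdown, 891 and 892 in POU2F2 knockdown and 1228 in control. The markers' part in the result was not tested.

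A list of 21 partner genes of the receptor (constant genes, the signalling chains CD79A and CD79B, JCHAIN, which joins secreted antibodies into polymers, and surrogate light chains) was counted in the same way. In OCI-Ly7 POU2AF1 knockdown 15 were tested and 2 were called, both lower, namely IGHM and VPREB3 (a pre-B cell receptor chaperone, log2 change -1.05 ± 0.17), with a median of -0.26, where 0.887% of all genes were called and 0.606% lower. With the series as blocks 5 were called lower, with IGKC, IGLC1 and JCHAIN added, and 2 higher, IGHG3 and VPREB1, where 5.59% of all genes were called. In OCI-Ly7 POU2F2 knockdown 0 of the 15 were called in either fit. In SUDHL4, 19 were tested, and 9 were called higher and 1 lower in POU2AF1 knockdown and 5 higher and 1 lower in POU2F2 knockdown. Of all genes 18% were called higher in that POU2AF1 knockdown comparison and 4.79% in that POU2F2 knockdown comparison. IGHD was the gene called lower in both. The fit of all libraries has 15 residual degrees of freedom, where that of OCI-Ly7 alone has 14, so its spread comes mostly from OCI-Ly7. Its coefficient of variation between libraries was 0.298, against 0.0779 in the fit of SUDHL4 alone. None of these SUDHL4 calls held in the fit of all libraries, which called IGLC1 higher and IGHM lower in POU2AF1 knockdown and 0 of the list in POU2F2 knockdown. For CD79A the log2 change in POU2AF1 knockdown was 1.07 ± 0.14, with an edgeR adjusted p of 9.71e-08 in the fit of SUDHL4 alone and 0.281 in that of all libraries.

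The octamer was searched for in the first 100 bases of the annotated transcripts of all GENCODE 29 genes, whether or not they are in the tables, as ATGCAAAT or its reverse complement ATTTGCAT. It was present in 9 of 330 V segments (2.73%) and in 851 of 58346 other genes (1.46%). Among the dominant segments the window of IGHV4-59 held it at position 33, shown here with the motif in capitals.
IGHV4-59: gcaccacccacATGCAAATcctcacttaag
Among the segments called lower, IGKV1D-8 held it at position 87 and IGLV1-44 at position 4. The annotated transcripts begin at different distances from the promoters, so no match says only that these letters are not in this window.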

How the data were processed

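RNA-seq of 26 files was analysed. Per the submitters' processing notes, the authors used fastp, Salmon 1.5.1 and GRCh38.p13. The transcript release is not given in the sources used here. The authors deposited an estimated count of reads and a TPM value for each transcript. Libraries were TruSeq stranded mRNA, paired-end, per the labels' protocols.

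Transcripts were summed per gene with GENCODE 29 (205964 of 227912 matched, holding 98.4% to 98.9% of reads). Pairs of files whose gene counts differed by close to sampling noise (ratio of their spread to counting noise 1.12 to 1.15, against 2.39 to 70.4 for 53 other pairs) were merged and counted as 1 sample, which left 22 libraries. Estimated counts were rounded and tested with edgeR 4.0.16 (quasi-likelihood, TMM, filterByExpr with a minimum count of 10, robust) including a batch term for OCI-Ly7, with Benjamini-Hochberg adjustment over all genes tested at 0.05. SE is the absolute log2 change over the square root of F. Shares were compared by exact two-sided permutation over libraries within batch (Python 3.11.15). Alternatives used limma 3.58.1 on log2(TPM + 1) and DESeq2 1.42.0.

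Segments were named if dominant, if at a mean of at least 1 CPM and 1% of their class in a line, or if called. The members and lists were chosen with earlier results of these data known. Sequences, positions and identities come from GENCODE 29 annotation and transcripts. Some listed genes are not reported here. Cultures per library, and promoter sequence of V segments, were not used here. The precision of low-count segments is limited by their reads, and Wilson intervals cover counting error only.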

Additional observations from a re-analysis of the deposited data

Results flagged for a closer look

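The dominant light segment had values on opposite sides of control in the lines after POU2AF1 knockdown, and neither change was called. IGKV4-1 was lower in all 6 OCI-Ly7 POU2AF1 knockdown libraries than in the control of the same batch 1 or series, with a log2 change of -0.93 (edgeR adjusted p = 0.119). IGKV2-28 was higher in the single SUDHL4 POU2AF1 knockdown library than in its control, with a log2 change of 0.31 (edgeR adjusted p = 0.0559 in the fit of SUDHL4 alone and 0.995 in that of all libraries). The changes differ by -1.24 (OCI-Ly7 minus SUDHL4). They concern different segments and were fitted separately, and the difference was not tested. Dixon's criterion was applied in 33 checks, each of a single level or share in a single OCI-Ly7 group of 4 to 8 libraries. The checks reuse the same libraries. No library stood outside the others in the level or share of the leading segments of OCI-Ly7, IGHM or IGKC.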

How the results depend on the processing

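Log2 changes are of each knockdown minus control, and counts are of V segments called. With V subgroups, where segments were summed by subgroup, counts are of subgroups called and cannot be set beside counts of segments. The share of all genes called is given above only for the fit of each line, the series block and the fit of all libraries. The counts from other settings have no such share beside them, so they do not single out V segments. In OCI-Ly7 POU2AF1 knockdown, IGHV1-69D (-0.95) stayed lower under every alternative. It missed the threshold with limma on TPM (-0.98, adjusted p = 0.0548), with the replicate number as a block (-1.38) and in batch 2 alone (-0.63). Leave-one-out values ran between -1.10 and -0.63, and only without control replicate 1 was the call lost. IGKV4-1 (-0.93) passed with the DESeq2 test (-0.91), unmerged files (-1.03), the series block (-1.06), the replicate block (-1.79) and the series block without POU2AF1 knockdown replicate 1 (-0.98). Unmerged files count repeats of 1 library as separate samples, so passing with them, here and below, adds no support. The replicate block uses numbers that do not pair the libraries. The count of 4 was 7 with DESeq2, 2 with no filter, 11 with unmerged files, 1 with limma, 2 with V subgroups, 10 with the series block, 2 with the replicate block, 15 with the series block without POU2AF1 knockdown replicate 1, 1 in batch 1 alone and 0 in batch 2 alone, and 0 to 5 leaving out a library. The IGHV1-69D share difference ranged between -1.59 and 0.481 points leaving out a library, with the positive value without control replicate 1. That of IGKV4-1 was -6.46 points with unmerged files, where it passed.

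In OCI-Ly7 POU2F2 knockdown nothing was called, and small changes turned sign. IGHV1-69D was 0.0762 with the replicate block, 0.0270 with POU2F2 knockdown replicate 3 in batch 1 and 0.0582 in batch 2 alone, and -0.22 to 0.0601 leaving out a library. IGKV4-1 was -0.39 with the replicate block and -0.0733 to 0.23 leaving out a library. Its share difference was -0.0791 points without batch strata and -0.0556 to 1.99 leaving out a library.

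In SUDHL4 POU2AF1 knockdown IGKV2-28 passed with DESeq2 (0.31) and with unmerged files (0.32), IGHV4-28 was -0.16 and IGKV2OR22-4 -0.0810 with limma, the count of 10 was 5 with DESeq2, 6 with V subgroups and 3 with all libraries, and the IGHV4-59 share difference was 7.80 points on TPM (4.64 on reads). In SUDHL4 POU2F2 knockdown IGKV2-28 passed with DESeq2 (0.32) and unmerged files (0.34), the count of 6 was 2 with DESeq2, 3 with V subgroups and 2 with all libraries, and the IGHV4-59 share difference was 6.61 points on TPM (3.86 on reads). Libraries there were left out 1 at a time in the fit of all libraries, not in that of SUDHL4 alone. That gave IGHV4-59 between -0.25 and 0.0632, IGHV4-28 between -0.39 and 0.10 and IGKV2-29 between -0.28 and 0.10. The causes of these shifts were not tested.

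Same-numbered libraries in OCI-Ly7 correlated between -0.489 and 0.663 in their deviations, so the numbers do not pair them. No paired analysis was possible in SUDHL4 because the block leaves 0 residual degrees of freedom. The batch-alone values, the series block without a library and the contrast between knockdowns were chosen after seeing the data.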
